A study of Macaca mulatta with 4 samples.

Results

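The cytosolic ribosomal protein genes encode the proteins that, together with ribosomal RNA, form the large and small subunits of the ribosomes of the cytoplasm. They were taken from the count table by name: symbols that start with RPL or RPS and a digit, and RPLP0, RPLP1, RPLP2 and RPSA, without the S6 kinases (names starting with RPS6K) and without names that end in P and a number. The rule found 85 of 33618 genes. Of these, 74 are core ribosomal proteins, 45 of the large and 29 of the small subunit, and 11 are paralogues of core proteins. The ending also dropped RPS19BP1, a binding partner of RPS19 and no pseudogene. Of the 80 core proteins, 6 lie outside the name rule: RPS6 and RPL36A were listed under RefSeq gene numbers, RACK1 under its older symbol GNB2L1, FAU is among those with other names, and RPS3A was not analysed here.

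RNA was sequenced from prefrontal cortex of wild-type infant rhesus macaques (Macaca mulatta), with 2 libraries labelled control, whose agent is given as none, and 2 labelled sevoflurane, an inhaled general anaesthetic. The sevoflurane animals breathed about 2.5 to 3% of it for 4 hours on 3 occasions, first near postnatal day 7 and then 14 and 28 days later, and cortex was collected directly after the last one. The sources used here do not describe the handling of the control animals. Nothing in the labels ties the 2 libraries of a group to different animals, and the p-values below therefore reflect the spread between these samples alone, which may be technical. Paired values are given as replicate 2 and then replicate 3 of each group.

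A ribosome holds a single copy of nearly every core protein, and cells therefore make these proteins in matched amounts. Much of this matching acts on translation: the messenger RNAs of vertebrate ribosomal proteins begin with a terminal oligopyrimidine (TOP) tract, through which the mTOR pathway raises or lowers their translation together. In brain, ribosomes are made in cell bodies and also serve local translation in dendrites, axons and the processes of glia. The genes have many processed copies in primate genomes, so reads from a ribosomal protein messenger RNA often match several places. The sources used here do not give how the counting treated such reads, and every level below is uncertain to that extent.

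Library depth was between 7793757 and 11706115 counts. Ribosomal protein genes took 0.467% and 0.458% of all counts in the controls and 0.446% and 0.466% after sevoflurane. Their summed level was 4573 and 4728 CPM in the controls and 4449 and 4615 after sevoflurane, where CPM are counts per 1e6 counts of a library after TMM scaling (the trimmed mean of M values). The groups thus overlapped, and the summed share did not separate sevoflurane from control. The control libraries, which include the shallowest one, differed from each other more than the sevoflurane libraries did: the median absolute log2 ratio between the 2 libraries of a group was 0.29 over all tested genes for controls and 0.19 for sevoflurane. Among ribosomal protein genes these medians were 0.20 and 0.14. Bulk tissue cannot tell fewer cells of a type from less RNA per cell.

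The comparison asked which ribosomal protein genes differ between sevoflurane and control cortex. One gene fell, RPS15A, and no gene rose. Of the 85 genes, 80 passed the filter on low counts, and 1 was called lower and 0 higher by edgeR's quasi-likelihood test (Benjamini-Hochberg adjustment over the 17693 genes tested, threshold 0.05). Over all tested genes 0.537% were called lower and 0.0622% higher, 0.599% in all. DESeq2 also called RPS15A alone among these genes, where it called 1.23% of all tested genes lower and 0.322% higher (1.55% in all). So did limma-voom, which called 0.582% lower and 0.0396% higher (0.622% in all). The DESeq2 shares are over the same 17693 genes. DESeq2 gave no adjusted p for some of them, RPL34 and RPL37 included, and these count as not called. At an unadjusted p under 0.05 edgeR had 4 ribosomal protein genes lower (RPS15A, RPL38, RPS9 and RPL27) and 1 higher (RPL31). Of all tested genes 5.57% were lower and 4.35% higher at that threshold, 9.92% in all.

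**Figure D1:**
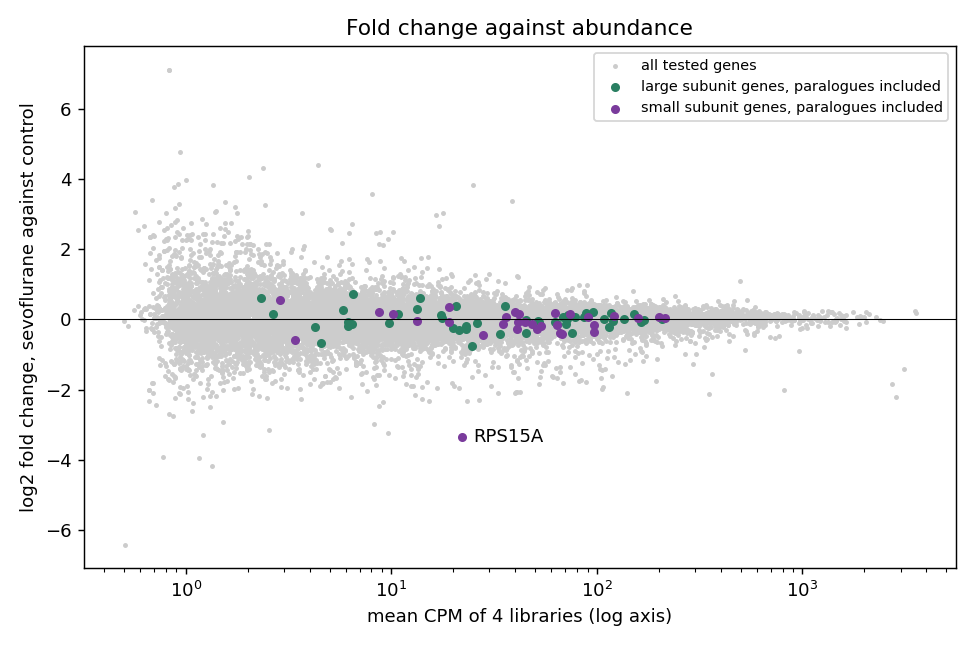
Fitted log2 fold change of sevoflurane against control (vertical) by mean CPM of the 4 libraries (horizontal, log axis) for all 17693 tested genes in grey and the 80 tested ribosomal protein genes in colour by subunit. RPS15A lies at -3.34, and every other ribosomal protein gene lies between -0.76 and 0.73.

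The other 79 tested genes lay between -0.76 and 0.73 on the log2 scale, and none was called. The median log2 fold change of the 80 was -0.03, against 0.00 for all tested genes, and the middle of their distribution ran from -0.18 (lower quartile) to 0.14 (upper quartile), against -0.21 to 0.20 for all tested genes. There were 37 positive and 43 negative values. Core large subunit genes summed to 2636 and 2727 CPM in controls and 2622 and 2675 after sevoflurane, and core small subunit genes to 1851 and 1901 in controls and 1725 and 1827 after sevoflurane. The small subunit sum was lower in each sevoflurane library than in each control, but without RPS15A it was 1812 and 1860 CPM in controls and 1721 and 1823 after sevoflurane, and the groups overlapped. A size of at least 0.5 on the log2 scale was reached by 8 of the 80 genes, against 18.9% of all tested genes, and a size of at least 1 by RPS15A alone, against 5.75%. For 67 of the 79 genes other than RPS15A the 95% interval of the fold change stayed within a 2-fold change either way, and for 40 it stayed within 1.5-fold. The remaining 12 intervals reached a 2-fold change, so these data do not bound those genes as tightly. For 15 genes both sevoflurane libraries lay above both controls and for 19 both lay below. Of all tested genes 20.7% lay above and 20.4% below in this way. Together the ribosomal protein genes reached 42.5%, near the 41.1% of all tested genes.

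RPS15A, a protein of the small subunit body that takes part in assembly of that subunit, was counted 403 and 311 times in the controls. It was counted 44 and 49 times after sevoflurane, although those libraries were deeper. In CPM the controls had 39.2 and 41.2 and the sevoflurane libraries 3.75 and 4.15. The groups were far apart and the libraries of each group close together. RPS15A averaged 40.2 ± 1.36 CPM in controls and 3.95 ± 0.281 CPM after sevoflurane (SD over 2 libraries each), a level 10.1-fold lower. Its log2 fold change was -3.34, with SE 0.22 and a 95% interval of -3.83 to -2.85 (edgeR, adjusted p = 0.00119).

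RPS15A had the smallest p of all 17693 tested genes and the most negative fold change of the 95 genes called lower. Its fold change moved little when a library was left out, from -3.42 without sevoflurane replicate 3 to -3.27 without sevoflurane replicate 2. As a share of all ribosomal protein counts it took 0.858% (95% Wilson interval 0.779 to 0.946) and 0.871% (0.78 to 0.973) in the controls. After sevoflurane it took 0.0843% (0.0628 to 0.113) and 0.0899% (0.068 to 0.119). These intervals cover counting error only. They do not overlap between the groups. Read against the ribosomal protein genes of the same library, RPS15A was lower in each sevoflurane library than in each control. These shares rest on the same RPS15A counts and are no separate test. RPS16, another small subunit protein, had 40.1 and 44.1 CPM in controls and 39 and 41.2 after sevoflurane, and RPS14 131 and 102 in controls and 117 and 132 after sevoflurane. These 2 examples were not taken by the rule for genes given in full, and their groups overlapped. Of the 29 core small subunit genes the groups overlapped for 15. Both sevoflurane libraries lay below both controls for 9, RPS15A included, and above for 5 (20.4% and 20.7% of all tested genes).

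Gene order was read from the RefSeq table of T2T-MMU8v2.0 genes. The nearest named and tested genes around RPS15A are XYLT1 and then ABCC6 on one side and ARL6IP1 and then SMG1 on the other. XYLT1, a xylosyltransferase that starts proteoglycan chains, had 257 and 256 CPM in controls and 166 and 220 after sevoflurane (log2 fold change -0.41, SE 0.15, edgeR adjusted p = 0.378). ABCC6, a membrane transporter, had 2.82 and 3.84 CPM in controls and 1.36 and 1.27 after sevoflurane (-1.32, SE 0.52, adjusted p = 0.431). Both were lower in each sevoflurane library, ABCC6 at few reads. On the other side ARL6IP1, a membrane-shaping protein of the endoplasmic reticulum, had 82.5 and 92.9 CPM in controls and 99.3 and 97.0 after sevoflurane (0.16, SE 0.14, adjusted p = 0.772). SMG1, a kinase of nonsense-mediated decay, had 392 and 314 CPM in controls and 374 and 420 after sevoflurane (0.17, SE 0.14, adjusted p = 0.77). None of the 4 was called, and each changed by less than RPS15A.

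Of the 11 genes called higher, LOC106995557 and THBS1 had the largest gains in CPM, singled out after their values were seen. LOC106995557, an identifier that the gene tables used here do not annotate, had 3.99 and 2.38 CPM in controls and 60.0 and 33.3 after sevoflurane (3.83, SE 0.36, adjusted p = 0.00435). Its mean rose by 43.5 CPM, while RPS15A lost 36.3. THBS1, a secreted matrix glycoprotein, gained 44.7 CPM from a higher control level (0.88), and LOC107000143, at few reads, had the larger log2 fold change (4.05). Its sevoflurane libraries differed from each other more than those of RPS15A did. Whether reads were shared between LOC106995557 and RPS15A was not tested.

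**Figure D2:**
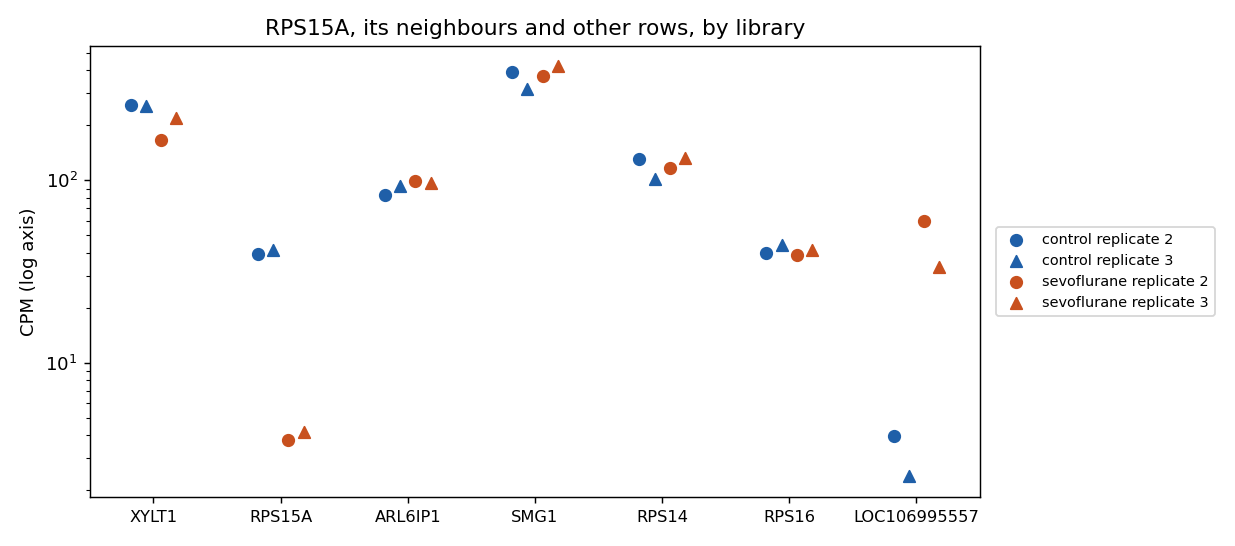
CPM (log axis) in each of the 4 libraries for RPS15A, its neighbours XYLT1, ARL6IP1 and SMG1, the small subunit genes RPS14 and RPS16, and LOC106995557. The neighbour ABCC6, with the lowest log2 fold change of the 4 neighbours (-1.32, at few reads), is not plotted. RPS15A drops from about 40.2 to 3.95 CPM with tight pairs, XYLT1 is lower by far less, the other plotted neighbours and ribosomal protein genes stay near their control levels, and LOC106995557 moves the opposite way.

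Some markers of several cell types were also called in the same libraries. Oligodendrocyte markers fell, with 10 of 10 called lower (log2 fold changes from -2.22 to -1.54), and their summed level was 9405 and 14830 CPM in controls and 2454 and 3667 after sevoflurane. None of the 10 was at 0 in any library. The median log2 ratio of replicate 3 to replicate 2 over the 10 markers was 0.45 in controls and 0.59 after sevoflurane. For RPS15A this ratio was 0.07 in controls and 0.14 after sevoflurane. The part of oligodendrocyte content in the RPS15A value was not tested. All 6 precursor markers had negative values, and 2 were called lower, OLIG2 (-1.19) and SOX10 (-1.41). OLIG1 (-1.26), GPR17 (-1.09), CSPG4 (-0.55) and PDGFRA (-0.14, edgeR adjusted p = 0.795) were not called. The 6 summed to 633.8 and 731.3 CPM in controls and 363.1 and 423.1 after sevoflurane.

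Of 7 astrocyte markers GFAP fell (-1.41, edgeR adjusted p = 0.00928), and the other 6 were not called. Their sum with GFAP was 9328 and 7585 CPM in controls and 5450 and 5573 after sevoflurane, and without GFAP it was 4089 and 3714 in controls and 3922 and 3679 after sevoflurane, with groups that overlapped. ALDH1L1 (0.21), SLC1A2 (0.06) and SLC1A3 (0.06) had positive values, and S100B (-0.76), AQP4 (-0.49) and GJA1 (-0.40) negative ones. The astrocyte markers thus held 3 positive and 4 negative values.

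Of 8 microglia markers CX3CR1 fell (-1.03, adjusted p = 0.02 by edgeR) and the other 7 were not called. C1QA (0.66), C1QB (0.67) and C1QC (0.37), subunits of complement component C1q, were higher in both sevoflurane libraries than in both controls, without passing. P2RY12 (-0.33), CSF1R (-0.41), AIF1 (-0.34) and TMEM119 (-0.89) had negative values. With CX3CR1 the microglia markers thus held 3 positive and 5 negative values. The microglia sum was 363.8 and 328.1 CPM in controls and 250.0 and 304.1 after sevoflurane, and without CX3CR1 it was 268.4 and 238.6, then 205.7 and 258.1, with groups that overlapped. Of 7 fibroblast and meningeal markers SLC6A13 rose (1.43, edgeR adjusted p = 0.0465) and the other 6 were not called. All 7 had positive values, from 0.67 to 3.37. They summed to 215.0 and 103.0 CPM in controls and 526.5 and 192.5 after sevoflurane, with groups that overlapped. Of 8 neuron, 6 endothelial and 4 red blood cell markers tested, 0 were called. All 8 neuron values were positive, from 0.01 to 0.24. The endothelial markers held 2 positive and 4 negative values, and the red blood cell markers 2 of each sign. Neuron sums were 4104 and 5724 CPM in controls and 5387 and 5251 after sevoflurane, endothelial sums 162.9 and 180.9, then 179.8 and 168.8, and red blood cell sums 51.8 and 26.0, then 27.0 and 39.0. Of 6 listed red blood cell markers 1 was at 0 in every library. The part of cell composition in the RPS15A value was not tested.

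In the large subunit, 45 of 45 core genes passed the filter, 0 were called, and the median log2 fold change was -0.03. RPL38, a large subunit protein known in mouse embryos for a role in the translation of Hox messenger RNAs, had 27.7 and 34.4 CPM in controls and 16.5 and 20.1 after sevoflurane. Both sevoflurane libraries lay below both controls. The log2 fold change was -0.76 with SE 0.21 and a 95% interval of -1.22 to -0.29, the most negative after RPS15A, and did not pass (adjusted p = 0.206 by edgeR). RPL27 had 53.5 and 48.3 CPM in controls and 39.6 and 38.6 after sevoflurane, a fold change of -0.38 (SE 0.16, adjusted p = 0.46).

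At the other end, RPL35A, one of the genes mutated in human Diamond-Blackfan anaemia, had 5.75 and 3.97 CPM in controls and 8.36 and 7.88 after sevoflurane. Its value of 0.73 was the most positive of the 80, with SE 0.33 and a 95% interval of -0.01 to 1.47, and did not pass (adjusted p = 0.517). RPL31, which sits near the exit of the peptide tunnel, had 11.4 and 10.3 CPM in controls and 19.5 and 13.7 after sevoflurane (0.61, SE 0.25, adjusted p = 0.472). RPL34 had 1.07 and 2.65 CPM in controls and 2.3 and 3.22 after sevoflurane (0.60, SE 0.58), with groups that overlapped. Most of the larger values came from genes with few reads: of the 7 genes besides RPS15A with a size of at least 0.5, 5 had under 50 counts in some library. In all, 12 tested ribosomal protein genes had under 50 counts in some library, and their median absolute log2 fold change was 0.42, against 0.14 for the rest. RPS15A is among these 12 and in their median, but only through its sevoflurane counts of 44 and 49. The gap between the medians is therefore not one of read number alone. The 30 large subunit genes outside the stalk, the tunnel and the RPL5 particle had 13 positive and 17 negative values with a median of -0.03.

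**Figure D3:**
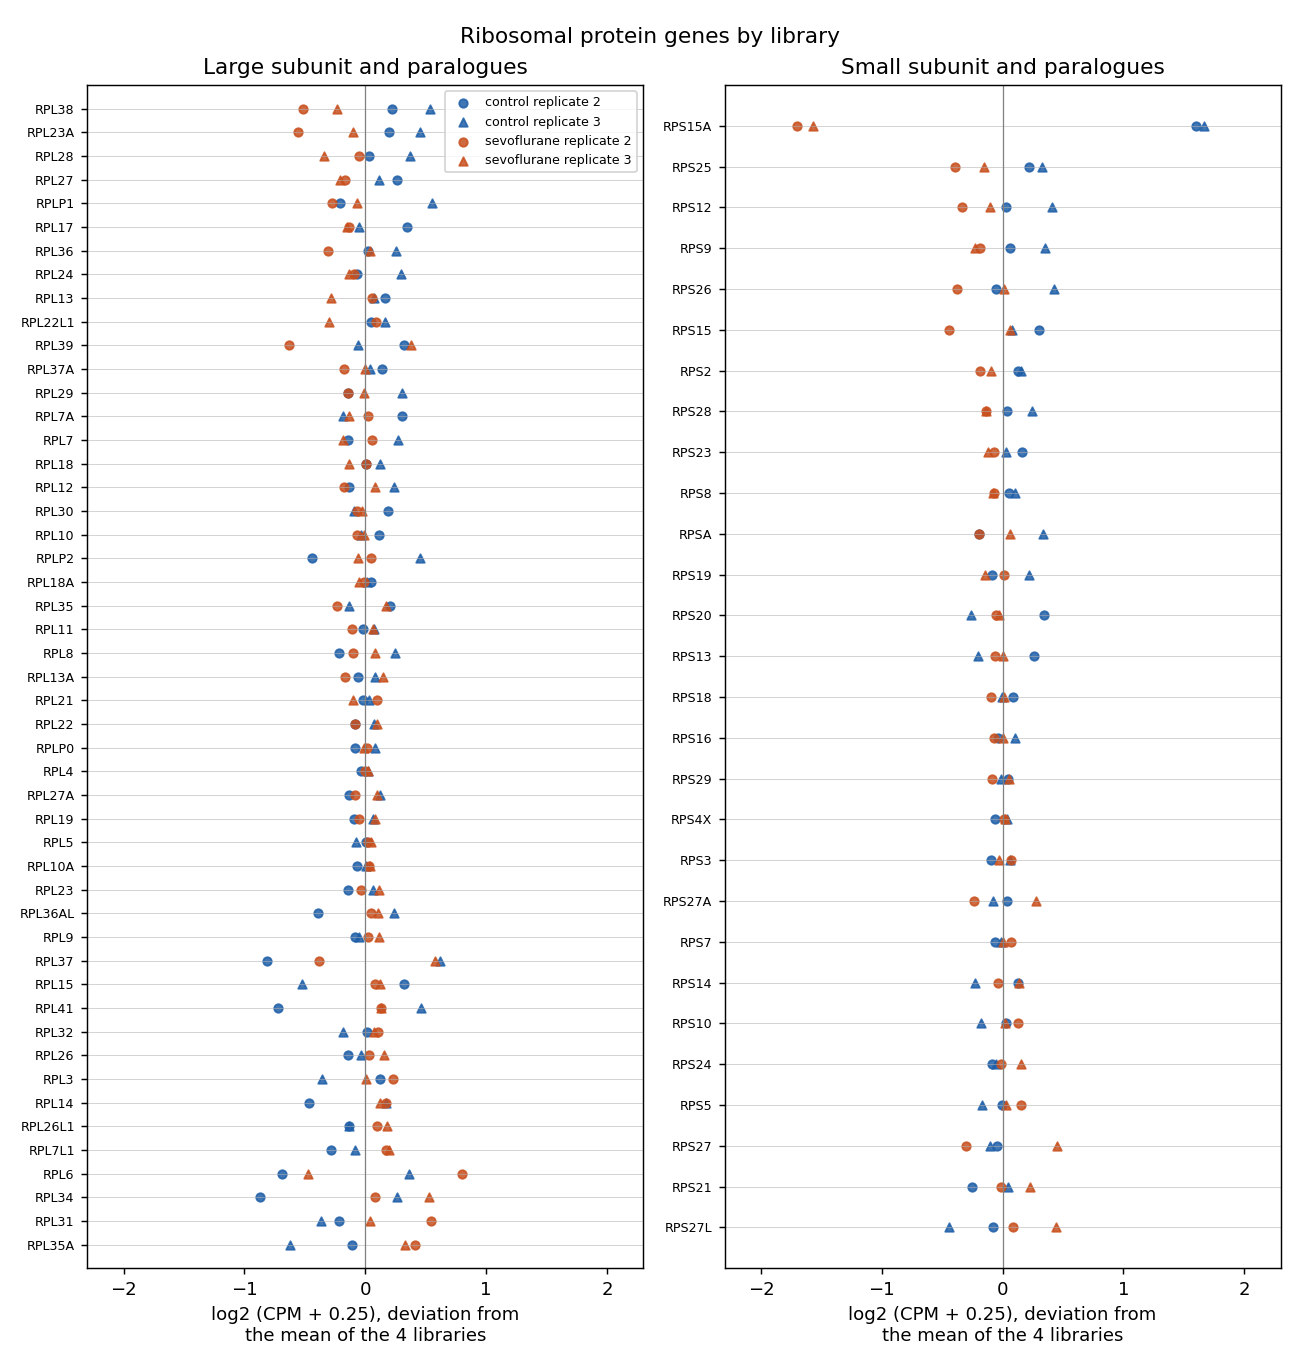
Deviation of each tested ribosomal protein gene, apart from the few not reported here, from its mean over the 4 libraries, in log2 (CPM + 0.25), by library, ordered by fold change from the most negative at the top. Blue marks control and orange sevoflurane, circles replicate 2 and triangles replicate 3. Only RPS15A shows tight pairs that are widely apart, and for most other genes the colours mix around 0.

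The acidic stalk of the large subunit recruits the elongation factors. Its base protein RPLP0 had 127 and 142 CPM in controls and 136 and 134 after sevoflurane (0.01, SE 0.13, 95% interval -0.28 to 0.30). RPLP1 had 63.7 and 108 CPM in controls and 60.8 and 70.4 after sevoflurane (-0.38, SE 0.23, adjusted p = 0.656), and its groups overlapped, with the controls far apart. RPLP2, its partner in the stalk dimers, had 4.38 and 8.34 CPM in controls and 6.22 and 5.76 after sevoflurane (-0.07, SE 0.38). Both stalk partners were highest in control replicate 3. Across the 4 stalk genes, RPL12 included, the groups overlapped for every gene.

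RPL5 and RPL11 form a particle with the small rRNA of the large subunit, and when ribosome assembly fails this particle binds MDM2, the inhibitor of p53. RPL5 had 78.4 and 74.0 CPM in controls and 79.5 and 80.6 after sevoflurane (0.07, SE 0.14, 95% interval -0.24 to 0.38). RPL11 had 51.0 and 54.4 CPM in controls and 48.0 and 54.1 after sevoflurane (-0.05, SE 0.15, 95% interval -0.39 to 0.30). Neither interval reached a 1.5-fold change.

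The 9 genes whose proteins line or surround the tunnel through which the new peptide leaves had a median of 0.01, with 5 positive and 4 negative values and 0 calls. RPL4, which reaches into the tunnel, had 202 and 210 CPM in controls and 207 and 210 after sevoflurane (0.02, SE 0.12, 95% interval -0.25 to 0.28), among the narrowest intervals of the 80. RPL23A, at the docking site of the signal recognition particle, had 5.06 and 6.09 CPM in controls and 2.90 and 4.06 after sevoflurane (-0.67, SE 0.39, adjusted p = 0.644). Its groups did not overlap, but the values rest on few reads. RPL39 had 7.5 and 5.69 CPM in controls and 3.75 and 7.79 after sevoflurane (-0.20, SE 0.40), and its sevoflurane libraries spanned both controls.

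Further large subunit genes gave overlapping groups. RPL13A, often used as a reference gene in expression assays, had 161 and 178 CPM in controls and 150 and 186 after sevoflurane (-0.02, SE 0.14). RPL10, which completes the subunit late in its assembly, had 177 and 160 CPM in controls and 156 and 162 after sevoflurane (-0.08, SE 0.12). RPL3, a protein of the peptidyl transferase region, had 103 and 73.5 CPM in controls and 111 and 94.6 after sevoflurane (0.21, SE 0.18). None of the 3 was called.

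In the small subunit, 29 of 29 core genes passed the filter, 1 was called lower and 0 higher, with a median of -0.08 and 12 positive and 17 negative values. The 14 genes of the head had a median of -0.07 and values from -0.58 to 0.35. The 15 genes of the body and platform had a median of -0.08, and apart from RPS15A their highest value was 0.21. Both medians lay slightly below the 0.00 of all tested genes. No test of these medians was made.

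RPS9, a protein of the messenger RNA entry channel, had 69.8 and 85 CPM in controls and 58.6 and 57 after sevoflurane. Both sevoflurane libraries were lower, and the log2 fold change of -0.42 had SE 0.15 and a 95% interval of -0.77 to -0.07. RPS9 did not pass (adjusted p = 0.384 by edgeR). RPS12 had 28.0 and 36.5 CPM in controls and 21.7 and 25.5 after sevoflurane (-0.44, SE 0.20, adjusted p = 0.526). RPS25, which many viral internal ribosome entry sites require, had 3.90 and 4.24 CPM in controls and 2.47 and 2.96 after sevoflurane (-0.58, SE 0.43, adjusted p = 0.738). All 3 leaned the same way as RPS15A, but by far less and without a call.

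RPS3, a head protein at the entry channel that also acts in DNA repair, had 200 and 223 CPM in controls and 225 and 210 after sevoflurane (0.04, SE 0.12). RPS19, the gene most often mutated in human Diamond-Blackfan anaemia, had 32.7 and 40.6 CPM in controls and 35 and 31.5 after sevoflurane (-0.14, SE 0.18). In both genes the groups overlapped. RPSA, also known as the laminin receptor, had 82.9 and 120 CPM in controls and 83.0 and 99.4 after sevoflurane (-0.15, SE 0.19), and its spread between controls exceeded the difference between groups.

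Of the 5 core proteins outside the name rule that had a row, 0 were called. RPS6, the phosphorylated target of the S6 kinases, had 128 and 131 CPM in controls and 115 and 125 after sevoflurane (-0.11, SE 0.13). Each sevoflurane library lay below each control, and the gap between the closest libraries of the groups was smaller than the difference within the sevoflurane pair. FAU, a ubiquitin-like fusion of a small subunit protein, had -0.11 (SE 0.18), RACK1, a signalling scaffold on the small subunit, -0.07 (SE 0.14), and RPL36A -0.29.

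Paralogues replace or accompany core proteins in some tissues. Of the 11, 6 passed the filter, 0 were called, and 5 of the 6 had positive values (median 0.22). The testis and muscle paralogues were at or near 0: RPL3L, known from heart and skeletal muscle, had 0 counts in every library, which allows at most 0.397 CPM in the shallowest one. RPL10L, known from testis, had 2 counts in control replicate 3 and 0 elsewhere. RPL39L had 3 and 0 counts in controls and 7 and 0 after sevoflurane. The Y-linked copies of RPS4X had no more than 1 count in any library, while RPS4X itself, on the X chromosome, had 151 and 162 CPM in controls and 159 and 160 after sevoflurane (0.03, SE 0.12).

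RPL7L1, which acts in assembly of the large subunit rather than in the finished ribosome, had 16.7 and 19.2 CPM in controls and 23.0 and 23.3 after sevoflurane (0.37, SE 0.20, adjusted p = 0.608). Of the counts of RPL7L1 and RPL7 together, RPL7L1 took 22.5% and 20.1% in controls and 26.0% and 29.6% after sevoflurane. Both sevoflurane shares were higher than both control shares, with counting intervals that overlap between replicate 2 of each group. The finished-ribosome protein RPL7 itself had 57.3 and 76.5 CPM in controls and 65.6 and 55.5 after sevoflurane. RPS27L, a p53 target, had 2.63 and 1.99 CPM in controls and 2.98 and 3.90 after sevoflurane (0.56, SE 0.47, adjusted p = 0.772), and RPS27 had 8.28 and 7.94 in controls and 6.91 and 11.8 after sevoflurane (0.20, SE 0.32).

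The ubiquitous RPL26 had 80.2 and 86.5 CPM in controls and 90.5 and 98.6 after sevoflurane (0.18, SE 0.14), and its paralogue RPL26L1 12 in each control and 14.2 and 15 after sevoflurane (0.28, SE 0.22). RPL26L1 took 13.0% and 12.2% of the counts of its pair with RPL26 in controls and 13.6% and 13.2% after sevoflurane. RPL22 had 102 and 114 CPM in controls and 102 and 116 after sevoflurane (0.01), and its paralogue RPL22L1 4.38 and 4.77 in controls and 4.52 and 3.39 after sevoflurane (-0.21, SE 0.39). RPL22L1 took 4.12% and 4.0% of its pair with RPL22 in controls and 4.23% and 2.83% after sevoflurane. In both pairs the counting intervals of all libraries overlapped. RPL36AL had 13.1 and 20.3 CPM in controls and 17.8 and 18.6 after sevoflurane (0.13, SE 0.25).

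For many of these genes the libraries of a group differed more than the groups did. In 55 of the 80 the larger log2 ratio within a group exceeded the size of the fold change. The widest cases were chosen after their values were seen. RPL6 had 20.2 and 42 CPM in controls and 57 and 23.4 after sevoflurane, so that each group held a high and a low library. RPL37 had 1.27 and 3.84 CPM in controls and 1.79 and 3.73 after sevoflurane, higher in replicate 3 of both groups. RPL41, a very short basic peptide, had 6.14 and 14.3 CPM in controls and 11.3 in each sevoflurane library.

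RPL15 had 186 and 103 CPM in controls and 157 and 162 after sevoflurane. The fold change was 0.14 (SE 0.23, adjusted p = 0.908 by edgeR). Its value depended on which control library was kept: without control replicate 2 it was 0.63 and called higher (adjusted p = 0.0396), and without control replicate 3 it was -0.22. With the controls on either side of both sevoflurane libraries, no direction can be given for RPL15.

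**Figure D4:**
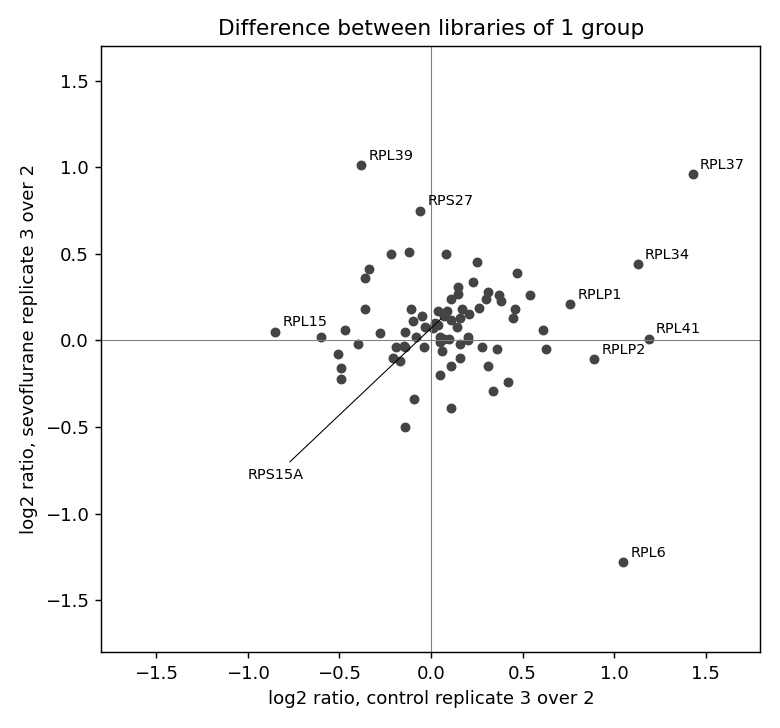
Log2 ratio of replicate 3 to replicate 2 in the control group (horizontal) and in the sevoflurane group (vertical) for the 80 tested ribosomal protein genes. Most genes lie near the centre, RPS15A included, while RPL6 (1.05 and -1.28), RPL37 (1.43 and 0.96) and RPL15 (-0.85 and 0.05) lie far out.

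Genes that act with the ribosomal proteins were read in the same fit. Of 76 mitochondrial ribosomal protein genes, which build the separate ribosome of mitochondria, 0 were called, and the median was 0.00. MRPL42 had the smallest p of them, with 36.6 and 30.6 CPM in controls and 48.2 and 48.7 after sevoflurane (0.52, SE 0.17, edgeR adjusted p = 0.299). MRPL36 (0.95, SE 0.43) and MRPL14 (0.61, SE 0.29) followed. Of 48 tested ribosome biogenesis factors 0 were called (median -0.05). TCOF1, a nucleolar factor of rRNA transcription, had 43.7 and 51.2 CPM in controls and 34.3 and 35.8 after sevoflurane (-0.44, SE 0.17, adjusted p = 0.407). WDR12, a factor of large subunit maturation, had 0.71 (SE 0.36), and RRP12, which helps export both subunits from the nucleus, -0.32 (SE 0.18).

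Of 22 tested translation factors and other messenger RNAs of the TOP class, 0 were called, with a median of 0.09 and 14 positive values. BTF3, a subunit of the complex that shields new peptides at the ribosome, had 23.9 and 23.7 CPM in controls and 40.4 and 42.6 after sevoflurane. Both pairs were tight, and the fold change of 0.80 (SE 0.17) did not pass (adjusted p = 0.088 by edgeR). EIF4A2, an initiation helicase, had 530 and 499 CPM in controls and 657 and 664 after sevoflurane (0.36, SE 0.11, adjusted p = 0.276). EEF1B2, an exchange factor of elongation, had 72.3 and 74.7 CPM in controls and 93.5 and 85.7 after sevoflurane (0.29, SE 0.14, adjusted p = 0.554).

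Of 29 tested genes of the mTOR and MYC control of ribosome supply, 0 were called, with a median of -0.08. MYC, a transcription factor that raises ribosome production, had 7.4 and 9.0 CPM in controls and 3.15 and 4.49 after sevoflurane (-1.10, SE 0.35, adjusted p = 0.299). EEF2K, the kinase that slows elongation, had 27.6 and 26.7 CPM in controls and 37.7 and 44.7 after sevoflurane (0.60, SE 0.17, adjusted p = 0.248). DDIT4, an inhibitor of mTOR, had 16.9 and 18.9 CPM in controls and 27.6 and 51.8 after sevoflurane (1.15, SE 0.28, adjusted p = 0.154). For each of the 3 the groups did not overlap and the test was not passed. Of the 10 genes with RPS6K names, 0 were called. RPS6KA5, a kinase that phosphorylates CREB and histone H3, had 26.1 and 23.6 CPM in controls and 41.3 and 34.7 after sevoflurane (0.61, SE 0.18, adjusted p = 0.262).

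**Figure D5:**
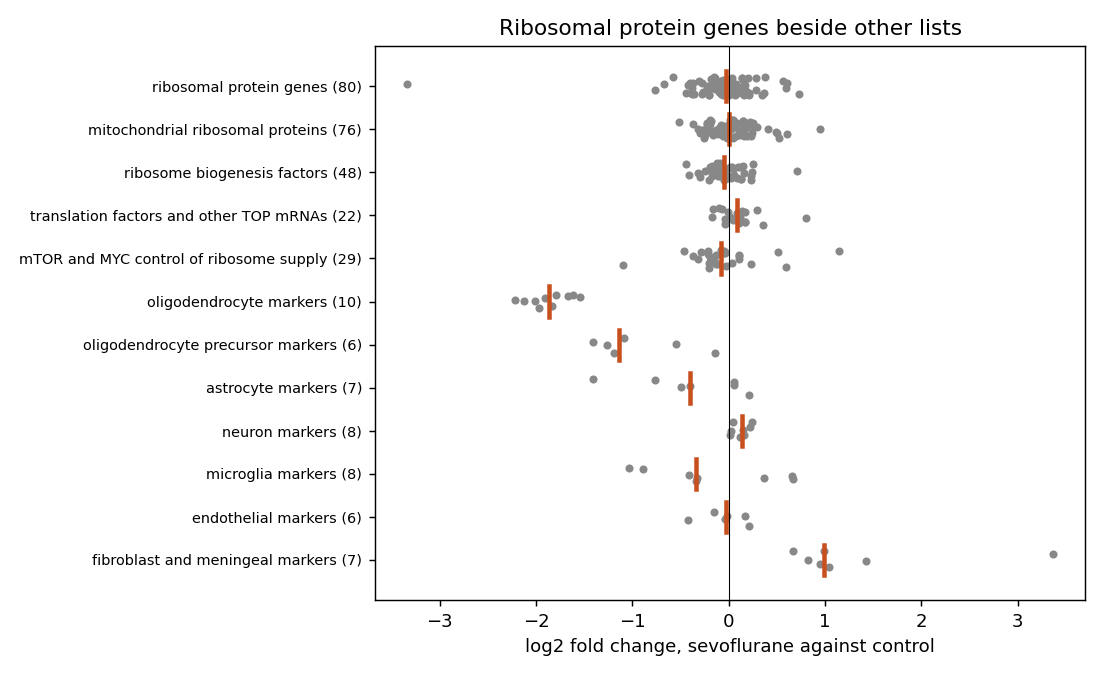
Log2 fold change of every tested gene in each list (grey points, number of genes in brackets) with the list's median (orange bar). Ribosomal protein genes, mitochondrial ribosomal proteins, biogenesis factors and translation factors centre near 0, while oligodendrocyte markers centre at -1.87 and fibroblast and meningeal markers at 0.99.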

How the data were processed

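Per the submitters' processing notes HISAT2, in a version they do not state, aligned the reads of the 4 libraries. The authors deposited 1 table of raw counts of reads per gene, with a column for each library. The program, build, annotation and strand of the counting, and its treatment of reads with several matches, were not given in the sources used here. The RNA had an integrity number above 8.0, per the labels' protocols.

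Counts were fitted in R 4.3.3 with edgeR 4.0.16, using filterByExpr (10 counts at median depth, 15 summed over libraries), TMM scaling, a model with the group alone and the two-sided quasi-likelihood test. Adjustment was by Benjamini-Hochberg over 17693 genes, at a threshold of 0.05. CPM were computed from total counts and TMM factors. Levels are not per length, so the fold changes compare each gene with itself. Shares of counts between genes are therefore not shares of transcripts. With 2 libraries against 2 an exact two-sided permutation test cannot go below 0.333, and summed shares and levels are given without a test. A count of 0 is bounded by 3 counts of that library. The steps were tested on simulated counts. Genes listed under RefSeq gene numbers were matched through the RefSeq gene table of T2T-MMU8v2.0, and RACK1 through its older symbol GNB2L1.

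Genes given in full are those called, the 5 most negative and 5 most positive fold changes at a mean of at least 1 CPM, the 5 smallest p, the 5 most abundant, a fixed set, and the paralogue pairs. From each context list they are the called genes and the 3 smallest p. A few genes that this rule takes are not reported here one by one, though every count and median includes them. The ribosomal protein genes and the lists were chosen with earlier results of these data known. Alternatives were other scalings (DESeq2's size factors or none beyond depth), both no filter and a stricter one (mean of 5 CPM), other tests (DESeq2 1.42.0, voom of limma 3.58.1, edgeR's likelihood ratio), a replicate block, and each library left out.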

Additional observations from a re-analysis of the deposited data

How the results depend on the processing

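RPS15A was called lower under all 13 alternative settings of the fit, with values from -3.42 to -3.27. No ribosomal protein gene was called higher except RPL15 without control replicate 2, so that count ranged from 0 to 1 with a library left out, and the count lower was 1 each time. The labels do not say whether the same replicate number pairs libraries across the groups. Over tested genes, the difference between replicates 2 and 3 was nearly uncorrelated between the groups (Pearson correlation 0.00898), which does not settle it. With the replicate block, 2 ribosomal protein genes were lower, RPL38 (adjusted p = 0.0377) and RPS15A, among 170 genes higher and 341 lower of all tested (1.93% lower). The counts over all genes, 11 higher and 95 lower, depended on the test and filter: 57 and 218 by DESeq2, 137 and 304 by the likelihood ratio test, 3 and 57 with no filter, and 7 higher by limma-voom. With a library left out they ran from 27 to 81 higher and from 118 to 232 lower; the cause was not tested. The median of the ribosomal protein genes ran from -0.06 to 0.04 (-0.03 with all libraries; 0.04 without control replicate 3 and 0.03 without sevoflurane replicate 2), so its sign is not fixed by these data.

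No scaling turned the sign of a named gene. With a library left out, these uncalled genes changed sign: RPL11 (-0.13 to 0.04), RPL13A (-0.18 to 0.13), RPL15 (-0.22 to 0.63), RPL22 (-0.08 to 0.10), RPL3 (-0.01 to 0.48), RPL36AL (-0.15 to 0.47), RPL37 (-0.48 to 1.12), RPL39 (-0.82 to 0.23), RPL4 (-0.01 to 0.04), RPL41 (-0.34 to 0.88), RPL6 (-0.40 to 0.99), RPL7 (-0.34 to 0.08), RPLP0 (-0.07 to 0.09), RPLP1 (-0.72 to 0.04), RPLP2 (-0.48 to 0.45, and 0.04 by limma-voom), RPS19 (-0.29 to 0.02), RPS27 (-0.23 to 0.54), RPS3 (-0.04 to 0.12), RPS4X (-0.02 to 0.08) and RPSA (-0.40 to 0.14).

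Summing each gene with its unnamed copies was not run, because the gene tables used here carry no descriptions by which to find them. The alternatives added after the data were seen changed no call. Few libraries and few reads limit the weaker genes, whose 95% intervals have half-widths of up to 1.43 on the log2 scale.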
